A study of Mus musculus with 2 samples.

Results

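The 10 genes described here encode matrix proteases and their inhibitors: the secreted proteases Adamts1, Adamts5 and Adamts9, the membrane-bound protease Adam19, the matrix metalloproteases Mmp2 and Mmp14, the tissue inhibitors Timp1, Timp2 and Timp3, and the membrane-anchored inhibitor Reck. Their rows were taken by symbol from a list drawn up with earlier results of these data known, and each was found once among the 32285 genes of the count files. The data are 2 droplet-based single-cell libraries of mitral valve leaflets from mouse embryos at E17.5, read at the 3′ ends of transcripts. The control library came from wild type embryos. The mutant library came from embryos of genotype Nfatc1-Cre, Dicer loxp/loxp, in which Cre recombinase driven from Nfatc1, a gene of the endocardium, targets Dicer, the enzyme that cuts microRNA precursors. Leaflets of 3 to 4 hearts were pooled per genotype, digested with 0.05% trypsin and sorted with a dye that labels dead cells, so no cell can be traced to its embryo. With 1 library per genotype there is no test between genotypes: every interval below is a 95% interval that covers counting error only, and genotype, pool and library preparation cannot be told apart.

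Valve leaflets are built from a layer of endothelial cells over interstitial cells that lie in collagen, proteoglycan and elastic matrix. Interstitial cells of the mitral valve arise in large part from endocardial cells that leave the layer and invade the cushion. ADAMTS1, ADAMTS5 and ADAMTS9 cleave versican, the large proteoglycan of the embryonic cushion, and loss of ADAMTS5 in mice leaves thickened valves with uncleaved versican. MMP14 sits on the cell surface and activates the secreted gelatinase MMP2 with TIMP2 as an adaptor. Mice without ADAM19 have defects of the cardiac cushions and septa. TIMPs bind and block metalloproteases, TIMP3 stays bound to the matrix and inhibits ADAMTS4 and ADAMTS5 strongly, and RECK restrains MMPs at the cell surface.

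Cell classes were rebuilt from marker genes, so the names are those of the re-analysis. The control library gave 10347 kept cells with a median of 5671 UMIs (unique molecular identifiers, 1 per captured transcript), and the mutant library 6190 cells with a median of 9490.5. Valve endothelial-like cells were 1 cluster, led by Plvap and Npr3, with 1201 control and 288 mutant cells, and all 10 valve endothelial and 8 pan-endothelial markers reached 10 CPM (UMIs scaled to equal library totals) there in both libraries. At a finer resolution these cells fell into a subset with Npr3 highest (735 control and 186 mutant cells) and a subset with Wnt4 highest (463 and 100 cells). Valve interstitial-like cells were 4 clusters and coronary endothelial-like cells 2. The 5 clusters that stayed unnamed held 6.22% of the control and 10.2% of the mutant cells. The libraries shared 19 barcodes, 11 of them among kept cells. Female-type cells, with Xist and no Y-linked transcript, made up 93.5% of the control library, whereas 42.5% of the mutant cells were female-type and 37.1% male-type. Dicer1 stood at 90.3 CPM (83.1 to 97.9) in control and 40.2 (33.4 to 48.0) in mutant valve endothelial-like cells, although 3′ tags need not cover the deleted exons and so do not check the deletion.

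MicroRNAs pair with transcripts mainly through their seed, bases 2 to 8, and the sequences are shown because the mutant genotype targets the gene of the enzyme that makes them. Of 16 microRNAs planned, 13 were used, with sequences from the RefSeq table (GRCm38.p6). The mature microRNAs discussed below, with the seed in capitals, are these.
miR-21a-5p: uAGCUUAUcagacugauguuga
miR-27b-3p: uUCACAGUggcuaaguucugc
miR-29b-3p: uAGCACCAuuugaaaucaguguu
miR-30a-5p: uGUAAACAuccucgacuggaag
miR-181a-5p: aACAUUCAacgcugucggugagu

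The longest annotated 3′ UTR of each of the 10 genes was searched on the transcript strand for the 7 bases complementary to each seed. Adamts5, with a 3′ UTR of 6437 bases, held matches to 5 of the 13 seeds, Timp3 (3604 bases), Adam19 (3498 bases), Timp2 (2630 bases) and Adamts9 (1883 bases) to 4 each, and Timp1 (103 bases) to none. The median length over all genes is 966 bases. The heptamer of miR-27b-3p was present in 16.03% of all 20869 genes with a 3′ UTR, that of miR-29b-3p in 13.2%, that of miR-30a-5p in 13.8%, that of miR-21a-5p in 7.22% and that of miR-181a-5p in 16.5%. Some of the sites in the 3 members past 1.5-fold in the Npr3 subset described below, and 1 in Reck, which was not, are shown. The heptamer is in capitals, within 30 bases of the GENCODE M21 transcript.
Adamts5, miR-27b-3p: caaatgtgcctACTGTGAaagatttgcata
Adamts5, miR-181a-5p: acacacaatgaTGAATGTagaatcggggac
Adam19, miR-27b-3p: catgacattatACTGTGAagtgtaagagga
Adam19, miR-29b-3p: tccctatcctaTGGTGCTttggtggtgaac
Timp3, miR-21a-5p: ttgagctttcaATAAGCTatagctttgttt
Timp3, miR-30a-5p: ttttgtagcacTGTTTACagttttcctcca
Reck, miR-21a-5p: tacagtttgaaATAAGCTattaatgtaata
The heptamers lie, on GRCm38, at chr16:85861023-85861029 and chr16:85862347-85862353 (minus strand) in Adamts5, at chr11:46145795-46145801 and chr11:46144615-46144621 (plus strand) in Adam19, at chr10:86348227-86348233 and chr10:86349372-86349378 (plus strand) in Timp3 and at chr4:43944407-43944413 (plus strand) in Reck. Other matches are not shown, such as those to miR-30a-5p in Adam19 and to miR-181a-5p in Timp3 and Reck. The lines shown therefore do not pair a microRNA with a direction. Genes that were higher, lower and little different in the mutant cells all held matches, and mature microRNAs are not read by this assay. A match is a run of letters and was not tested as a site.

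Each gene had its own order of levels over the 11 named classes. Levels are CPM of the UMIs summed over a class and library, with 1 tag per transcript whatever its length. Adamts1 was highest in valve endothelial-like cells, at 232 CPM (220 to 244) in control and 282 (264 to 302) in mutant cells, above arterial endothelial-like cells at 132 and 148. Adamts9 was highest in arterial endothelial-like cells, at 221 CPM in each library, followed by coronary endothelial-like cells at 83.1 and 97.6, and stood at 27.3 in valve endothelial-like cells of each library. Adamts1 and Adamts5 are neighbours on chromosome 16, 53059 bases apart on the minus strand, yet Adamts5 was spread over several classes. In control cells it stood at 52.5 CPM in valve endothelial-like, 51.8 in valve interstitial-like, 47.7 in arterial endothelial-like and 47.2 in smooth muscle or pericyte-like cells, with overlapping intervals, against 15.2 in coronary endothelial-like cells. The small lymphatic endothelial-like, epicardial-like and melanocyte-like classes had 95.2, 64.0 and 60.6 CPM.

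Mmp2 marked the interstitial side, at 384 CPM (377 to 391) in control and 381 (374 to 389) in mutant valve interstitial-like cells, above every other named class. Mmp14, its activator, was shared more widely: smooth muscle or pericyte-like cells held 313 and 303 CPM, valve interstitial-like cells 272 and 263, and valve endothelial-like cells 237 and 316. Adam19 was highest in valve interstitial-like cells, at 97.8 and 118 CPM, and next in smooth muscle or pericyte-like cells at 88.5 and 92.9, where the intervals of the control values overlapped.

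The inhibitors were distributed differently from the proteases. Timp1, Timp2 and Reck were highest in epicardial-like cells, with 118 and 120 CPM of Timp1, 651 and 710 CPM of Timp2 and 38.6 and 41.8 CPM of Reck, although this class had only 124 control and 45 mutant cells. For Reck the intervals overlapped those of valve endothelial-like cells, at 31.2 and 28.2 CPM. Timp3 was highest in the 40 control and 24 mutant lymphatic endothelial-like cells, at 513 and 636 CPM, and lay between 227 and 418 in epicardial-like, arterial and coronary endothelial-like, valve and mural cells. Macrophage-like cells had 9.79 and 9.47 CPM of Timp3 and 128 and 142 of Timp2. Cardiomyocyte-like cells were low in nearly all 10 genes, with Timp3, at 78.3 and 79.8 CPM, the highest.

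**Figure D1:**
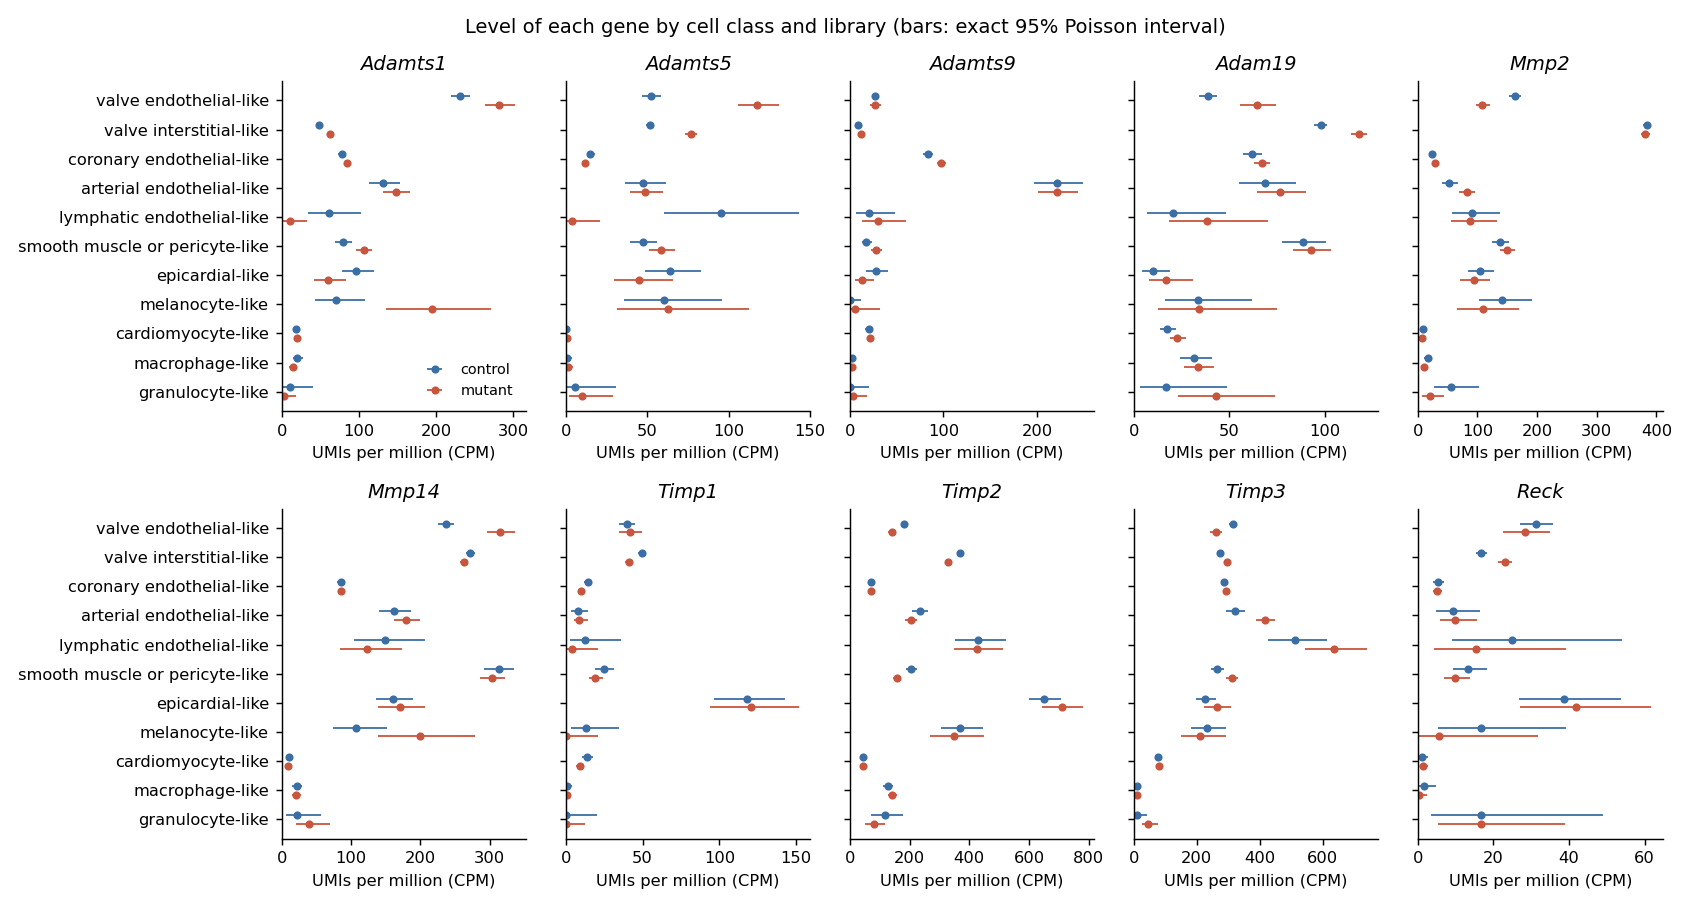
Level of the 10 genes in the 11 named cell classes. Points are CPM summed over the cells of a class in the control (blue) and mutant (red) library, the x axis starts at 0 in every panel, and bars are exact 95% Poisson intervals; Adamts1 peaks in valve endothelial-like cells at 232 and 282 CPM, Mmp2 in valve interstitial-like cells and Adamts9 in arterial endothelial-like cells at 221 in each library.

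In valve endothelial-like cells, the proteases Adamts5 and Adam19 were higher in the mutant library. Adamts5 stood at 52.5 CPM (47.0 to 58.3) in control and 118 (106 to 131) in mutant cells, a log2 ratio of 1.16 (0.95 to 1.38). Adam19 stood at 38.6 (33.9 to 43.7) and 64.5 (55.7 to 74.2), a log2 ratio of 0.74. The intervals of the libraries did not overlap for either gene. Only these 2 of 10 passed 1.5-fold upward, and 0 of 10 passed it downward. The same fold was passed by 7.63% of all 8636 genes at the same floor of 10 CPM in the upward direction and by 4.84% in the downward direction. The median log2 ratio of the 10 genes was 0.04, against 0.05 over all genes, so as a list they did not stand apart in this class. In the Npr3 subset the medians were 0.12 and 0.08, and in the Wnt4 subset 0.32 and 0.04. They were 0.19 and 0.005 in valve interstitial-like cells, and 0.03 and 0.03 in coronary endothelial-like cells.

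Smaller differences surrounded these. Mmp14 was at 237 CPM (225 to 249) and 316 (296 to 336), a log2 ratio of 0.41, and Adamts1, above, had a log2 ratio of 0.29. Mmp2 was lower in mutant cells, at 162 (153 to 172) and 108 (96.9 to 121), and its log2 ratio of -0.58 lay just inside the 1.5-fold limit. Timp2 went from 183 to 140 CPM and Timp3 from 315 (301 to 329) to 260 (242 to 279). Adamts9, Timp1 and Reck had log2 ratios of 0.00, 0.08 and -0.14, with intervals that overlapped between the libraries. The summed level of the 10 valve interstitial markers in these cells was also lower, at 1807 CPM in control and 1055 in mutant cells. In each library 7 of 10 reached 10 CPM. The markers did not move as a set: Col1a1 and Col3a1 were not among the genes past 1.5-fold in this class. In the Npr3 subset Col3a1 was higher and Col1a1 lower past that limit, and in the Wnt4 subset Col3a1 was lower. The part of interstitial transcripts in the Mmp2 and Timp2 values was not tested.

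In the subset with Npr3 highest, the proteases Adamts5 and Adam19 and the inhibitor Timp3 differed in opposite directions. Adamts5 stood at 42.5 CPM (36.2 to 49.6) in control and 127 (111 to 145) in mutant cells, a log2 ratio of 1.58 (1.28 to 1.88). Adam19 stood at 39.3 and 74.6 CPM, a log2 ratio of 0.92 (0.57 to 1.27). Timp3, the matrix-bound inhibitor of ADAMTS5, went the other way, from 345 CPM (326 to 364) to 186 (166 to 207), a log2 ratio of -0.89 (-1.07 to -0.72). Thus 2 of 10 passed 1.5-fold upward, as did 9.66% of all genes, and 1 passed it downward, as did 5.55%. Mmp14 was at 179 and 258 CPM and Mmp2 at 181 and 128, both short of the limit. Not every protease was higher and not every inhibitor lower. Timp1 stood at 19.7 and 28.8 CPM, a log2 ratio of 0.56 (0.01 to 1.08). Adamts9 stood at 37.5 and 29.9 CPM, a log2 ratio of -0.32 (-0.81 to 0.14), and Timp2 at 147 and 114. Macrophage markers were also higher in this subset of the mutant library, with summed levels of 12.6 and 61.6 CPM. Of these markers 0 of 7 in control and 3 of 7 in mutant cells were at 10 CPM or more. Macrophage-like cells themselves held 1.09 and 1.72 CPM of Adamts5, 31.6 and 33.6 of Adam19 and 9.79 and 9.47 of Timp3. The part of macrophage transcripts in the values of this subset was not tested.

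In the Wnt4 subset, Timp3 did not follow the Npr3 subset. It stood at 265 CPM (246 to 285) in control and 367 (334 to 402) in mutant cells, a log2 ratio of 0.47 (0.30 to 0.64). Adamts5 was again higher in mutant cells, at 67.4 (57.9 to 78.1) and 105 (87.4 to 124), a log2 ratio of 0.64, and Adam19 was at 37.1 and 50.3 with overlapping intervals. Adamts9 stood at 12.5 (8.60 to 17.6) and 23.5 (15.8 to 33.8) CPM, from 33 and 29 UMIs, and its direction turned when cells were thinned to equal depth, with a log2 ratio of -0.39. Mmp2 was lower, at 135 (122 to 150) and 79.5 (64.6 to 96.9), a log2 ratio of -0.76. Here 2 of 10 passed 1.5-fold upward, beside 10.9% of all genes, and 1 downward, beside 9.26%. The summed valve interstitial markers were 2268 and 1028 CPM in this subset, with 8 of 10 at 10 CPM or more in each library, and their part in the Mmp2 value was not tested.

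**Figure D2:**
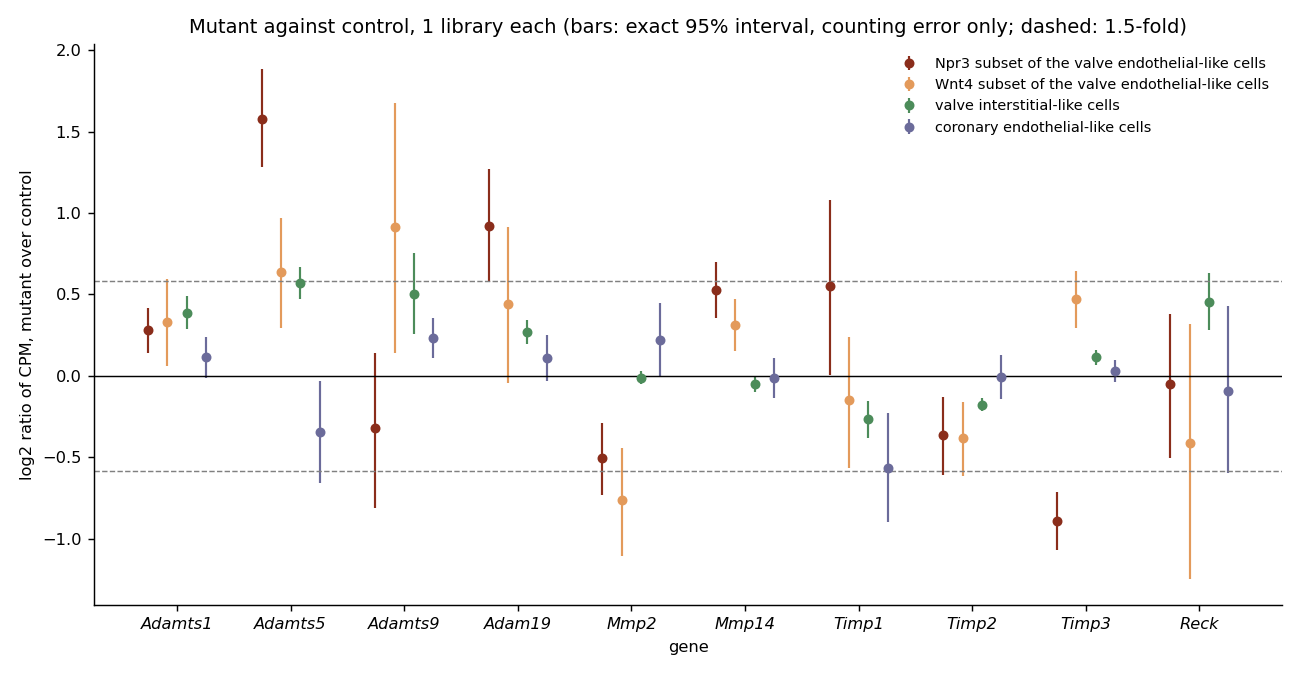
Log2 ratio of mutant over control CPM for the 10 genes in 4 cell groups, with exact 95% intervals for counting error and dashed lines at 1.5-fold. Adamts5 lies at 1.58 in the Npr3 subset and at -0.35 in coronary endothelial-like cells, and Timp3 lies at -0.89 in the Npr3 subset and 0.47 in the Wnt4 subset.

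The share of cells that hold a UMI gives another view of the same genes, with depth to be allowed for. In the Npr3 subset the median depth was 5056 UMIs in control and 9405.5 in mutant cells. Timp3 was detected in 66.3% of the control cells (62.7 to 69.7) and in 56.5% of the deeper mutant cells (49.0 to 63.7). With every cell thinned to 2000 UMIs, which left out 30 and 9 shallower cells, the shares were 41.3% (37.6 to 45.0) and 29.4% (22.8 to 36.7). Adamts5 was detected in 13.6% and 34.4% of the cells, and in 7.52% (5.68 to 9.72) and 13.6% (8.88 to 19.5) after thinning, where the intervals overlapped. Adam19 shares after thinning were 7.66% (5.81 to 9.88) and 18.1% (12.7 to 24.5). In macrophage-like cells, which should lack Adamts5, 0.56% and 1.68% of cells held a UMI of it at median depths of 4712 and 9773 UMIs, and Timp3 was found in 4.48% and 7.98%.

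Within the Wnt4 subset Timp3 was uneven between cells. The 3 mutant cells with most Timp3 held 90, 43 and 35 UMIs, together 37.2% of the subset's 452, and without the 3% of cells richest in Timp3 in each library the levels were 211 CPM in control and 238 in mutant cells, a log2 ratio of 0.17. Control cells with a Timp3 UMI made up 50.8% (46.1 to 55.4) of the subset and mutant cells 45.0% (35.0 to 55.3), so the share and the CPM did not point the same way and no order is read from the share. Timp3-rich cells, with Timp3 at 1000 CPM or more of their own UMIs, numbered 32 of 463 control and 12 of 100 mutant cells. Such cells also differed from the rest of the subset in other genes, in both libraries. Pnliprp1 stood at 244 against 18.7 CPM in control and 287 against 16.3 in mutant cells, Fbn2, a fibrillin of microfibrils, at 974 against 296 and 1359 against 185, and Enpp2, which makes lysophosphatidic acid, at 850 against 228 and 497 against 30.8. Prox1, a transcription factor of lymphatic and valve endothelium, stood at 590 against 228 and 582 against 109 CPM. Adamts5 was lower in them, at 16.2 against 71.3 CPM in control and 7.76 against 116 in mutant cells, from few UMIs. These cells were picked by their Timp3 level and the genes after their values were seen, so the values are a description.

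Adamts5 was concentrated in few cells as well. In the Npr3 subset the 6 mutant cells with most Adamts5 UMIs held 44.0% of its 225 UMIs, and the 23 richest control cells held 42.6% of 162. Without these cells the levels were 25.3 CPM in control and 74.0 in mutant cells, a log2 ratio of 1.55. For Timp3 in the same subset the values without the richest 3% of cells were 302 and 156 CPM. Syn3, a gene on the opposite strand that overlaps Timp3, stood at 12.1 and 3.39 CPM in the Npr3 subset and at 6.82 and 8.12 in the Wnt4 subset. In the Timp3-rich cells of the Wnt4 subset it stood at 54.1 CPM against 3.26 in the rest in control and at 69.9 against 0.906 in mutant cells. These levels are low, and no intervals were computed for them. In the Npr3 subset the Syn3 value was lower in the mutant library, as was that of Timp3. The part of Syn3 in the Timp3 ratios was not tested. The counting options are not given in the sources used here, so reads of such a pair cannot be assigned with certainty. Syn1, which overlaps Timp1, was at 0 CPM in these cells.

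The sex of the cells differed between the libraries, and the levels were therefore read by sex type. The control library held only 1 male-type cell, so male-type mutant cells could be set beside female-type control cells alone. In the Npr3 subset Timp3 stood at 346 CPM (327 to 365) in female-type control cells, 186 (158 to 217) in female-type mutant cells and 179 (150 to 213) in male-type mutant cells. The lower level was thus present in mutant cells of either sex type. Adamts5 in the same subset stood at 43.2 (36.8 to 50.4), 87.6 (68.9 to 110) and 195 (164 to 229). Its level was above the control in both mutant groups, but the intervals of the female-type and male-type mutant cells did not overlap either. These cells cannot stem from a single embryo. The intervals do not cover the uneven spread over cells, as 6 mutant cells held 44.0% of the Adamts5 UMIs of this subset. The sex types were not compared without those cells, and the cause of the difference was not tested. In the Wnt4 subset Adamts5 stood at 69.3 (59.5 to 80.2) in female-type control, 131 (107 to 159) in female-type mutant and 72.7 (47.9 to 106) in the 28 male-type mutant cells, so male-type mutant cells overlapped the control there. Timp1, an X-linked gene, stood in the Npr3 subset at 19.3 (15.1 to 24.3), 31.5 (20.8 to 45.9) and 23.5 (13.7 to 37.6).

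**Figure D3:**
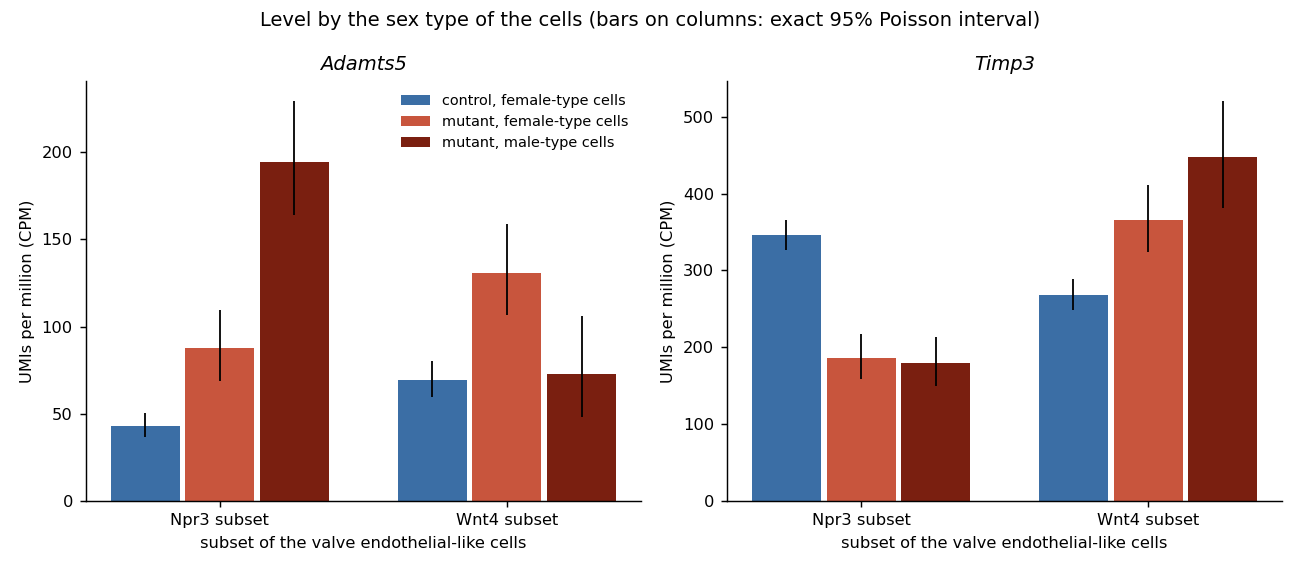
Adamts5 and Timp3 in the subsets of the valve endothelial-like cells by library and sex type. Columns are CPM on an axis from 0 and bars are exact 95% Poisson intervals; in the Npr3 subset Timp3 is at 346, 186 and 179 CPM and Adamts5 at 43.2, 87.6 and 195, and male-type mutant cells of the Wnt4 subset have Adamts5 at 72.7 CPM beside 69.3 in the control.

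Summed by role, the balance of transcripts differed most, among the cell groups plotted, in the Npr3 subset. The 6 proteases together stood at 788 CPM (760 to 817) in control and 991 (945 to 1039) in mutant cells, and the 3 TIMPs at 511 (489 to 535) and 329 (303 to 357). Protease transcripts per TIMP transcript were thus 1.54 and 3.02. Most of the TIMP difference lay in Timp3 (345 and 186 CPM), with Timp2 at 147 and 114 and Timp1 at 19.7 and 28.8. The quotient of this subset is therefore in large part the Timp3 value again, and the uncertainty from the overlap with Syn3 applies to it too. In the Wnt4 subset the same quotient was 1.23 and 1.34, in valve interstitial-like cells 1.24 and 1.37 and in coronary endothelial-like cells 0.938 and 1.01. These are quotients of transcript counts and hold no measure of protein or activity.

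**Figure D4:**
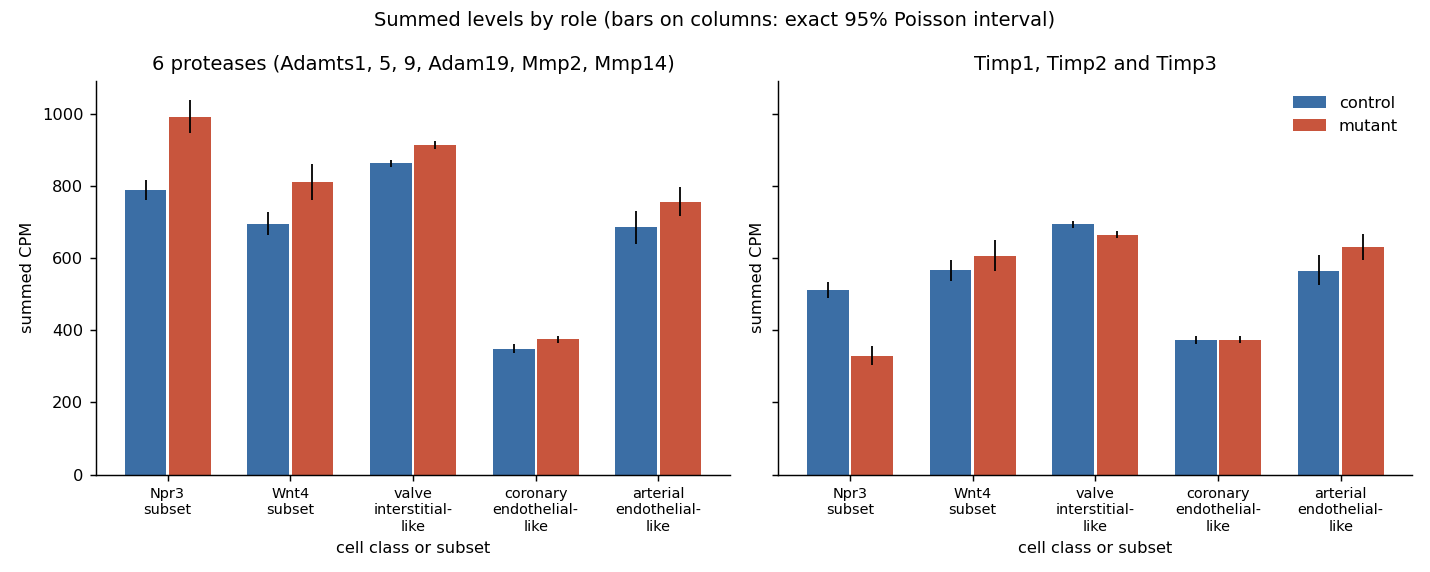
Summed CPM of the 6 proteases (left) and of Timp1, Timp2 and Timp3 (right) by cell group and library, with exact 95% Poisson intervals. The Npr3 subset has 788 and 991 CPM of protease and 511 and 329 CPM of TIMP transcripts in control and mutant cells.

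In valve interstitial-like cells no member of the group passed the limit. The count was 0 of 10 upward and 0 downward, beside 1.34% and 1.52% of all 8565 genes. Adamts5 came closest, at 51.8 CPM (49.2 to 54.4) in control and 76.9 (73.5 to 80.4) in mutant cells, a log2 ratio of 0.57. Its ratio differed between the clusters that make up the class: -0.35 (-0.63 to -0.09) in the cluster led by Prss35 and Matn4, 0.45 in that led by Dlk1 and Spon2, 0.14 in the cycling cluster and 0.84 (0.55 to 1.14) in that led by Dpep1 and Ogn. Weighting the clusters alike in each library gave a class ratio of 0.28. Reck, at 16.8 and 23.0 CPM, had ratios from 0.26 in the cycling cluster to 0.72 in the Dpep1 cluster. Of the more abundant members, Mmp2 had a log2 ratio of -0.01, Timp2, at 370 and 328 CPM, of -0.18 (-0.22 to -0.13), Mmp14 of -0.05 and Timp3 of 0.11. Dicer1 stood at 67.8 and 53.5 CPM in this class.

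Coronary endothelial-like cells, an endothelium outside the valve, had smaller log2 ratios, from -0.56 to 0.23. Reck, at 5.38 and 5.06 CPM, did not reach the floor, and of the 9 that did, 0 passed 1.5-fold upward and 0 downward, beside 0.482% and 0.322% of all genes. Adamts5 was slightly lower in the mutant library, at 15.2 CPM and 11.96, a log2 ratio of -0.35 (-0.66 to -0.03), and Timp1 stood at 14.4 (12.2 to 16.8) and 9.73 (8.22 to 11.4), a log2 ratio of -0.56. Timp3 was at 287 and 292 CPM. Dicer1 was lower in the mutant library in this class too, at 74.9 and 58.5 CPM, a log2 ratio of -0.36 (-0.50 to -0.22).

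The smaller classes had few members past the limit. In arterial endothelial-like cells Mmp2 was the 1 of 8 above the floor that passed upward, at 52.4 CPM (40.6 to 66.5) and 81.7 (69.4 to 95.6), beside 4.3% of all genes, and 0 passed downward, beside 3.65%. In smooth muscle or pericyte-like cells it was Adamts9, at 17.7 (13.1 to 23.5) and 28.3 (23.1 to 34.3), beside 3.33%, and 0 of 10 passed downward, beside 1.16%. Cardiomyocyte-like cells had 0 of 7 upward, beside 1.19%, and Timp1 downward, at 14.0 and 9.17 CPM, beside 1.88%. Macrophage-like cells had 0 of 5 upward, beside 3.04%, and Mmp2 downward, at 16.3 and 9.90 CPM with overlapping intervals, beside 3.54%.

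Classes with few cells gave little to read. Epicardial-like cells had 1 of 10 upward, beside 12% of all genes, and 2 downward, beside 9.24%, of which Adamts1 stood at 97.1 (77.9 to 120) and 60.2 CPM (42.1 to 83.3). The 46 control and 41 mutant granulocyte-like cells had 3 of 6 upward and 1 downward, beside 20.1% and 22.9%. In the 54 and 21 melanocyte-like cells 2 of 8 passed upward, Adamts1 at 70.7 (43.7 to 108) and 195 (135 to 272) and Mmp14 at 108 and 200 CPM, beside 24% of all genes, and 1 downward, beside 19.4%. Lymphatic endothelial-like cells had 1 of 9 upward, beside 16.7%, and 3 downward, beside 21.5%. There Adamts5 was counted 23 times in 40 control cells and 1 time in 24 mutant cells, a log2 ratio of -4.08 (-10.00 to -2.01). Dicer1 was at 74.5 and 23.0 CPM in these cells, from 18 and 6 UMIs, a log2 ratio of -1.62 (-3.32 to -0.30).

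The other genes of these families were taken from lists of matrix proteases, inhibitors and substrates. Of the 13 ADAM genes listed, 5 passed the floor in valve endothelial-like cells, and 4 of them were at least 1.5-fold higher in the mutant library, where 7.63% of all genes were higher and 4.84% lower. Adam9 stood at 12.8 and 31.6 CPM, Adam10, the main sheddase of Notch receptors, at 251 (239 to 264) and 380 (358 to 403), and Adam15 at 89.3 and 145. Adam17, the sheddase of TNF, was at 49.2 and 56.5. The median log2 ratio of the 5 was 0.69, beside 0.05 over all genes. Of 19 ADAMTS genes 5 passed the floor and 2 were higher, Adamts5 and Adamts8, the latter at 11.3 and 24.6 CPM, and of 19 MMP genes 3 passed and 0 were past the limit. Among 16 inhibitors 8 passed, and 1 was lower, Serpine2, an inhibitor of serine proteases, at 27.3 and 10.3 CPM.

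Other matrix proteases and the substrates held genes past the limit in both directions. Of 18 other matrix proteases 10 passed the floor in valve endothelial-like cells, 3 were higher (Htra1, Plaur and Plat) and 2 lower (Pcsk5 and Prss35), beside 7.63% and 4.84% of all genes. Htra1 stood at 38.6 (33.9 to 43.7) and 113 (101 to 126) CPM, and in valve interstitial-like cells went the other way, at 190 and 114. Plat, the tissue plasminogen activator, was higher in both classes, at 59.9 and 106 CPM in valve endothelial-like and 55.5 and 92.1 in valve interstitial-like cells. Of the 10 substrates and partners that passed, Hapln1 and Nrg1 were higher and Col4a1 lower. Hapln1, the link protein that fixes versican to hyaluronan, stood at 159 (150 to 169) and 808 (776 to 841) CPM, and Vcan itself at 392 and 369, with log2 ratios of 0.44 in the Npr3 and -0.51 in the Wnt4 subset. Col4a1, a basement membrane collagen, stood at 1504 and 801 CPM. In coronary endothelial-like cells Timp4, at 9.73 and 19.5 CPM, was the 1 listed inhibitor past the limit.

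Genes with the most similar pattern to a member were ranked by Pearson correlation of log2(CPM + 1) over 30 points, 15 clusters in each of the 2 libraries, among 9147 genes. The points share libraries, depth and cell makeup, so the correlations are a description. Adamts5 was closest to Fbn1 (0.95), Reck (0.93) and Prxl2c (0.93), Mmp2 to Col5a2 (0.98), Arhgef40 (0.97) and P3h3 (0.96), and Timp3 to Ppic (0.97), Nectin3 (0.96) and Sparc (0.96). Adamts1 was closest to Nectin2 (0.95) and Adam19 to Rai14 (0.95). By rank correlation the closest genes to Adamts5 were Il6st, Trio and Sulf1.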

How the data were processed

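The authors deposited raw UMI counts per gene and barcode for each library, and the submitters' processing notes name Cell Ranger 5.0.0 and mm10. The counting options and annotation release are not given in the sources used here. A barcode was kept if it held 500 genes or more, 1000 UMIs or more and less than 20% mitochondrial UMIs. Doublets were called with Scrublet in scanpy 1.11.5 and removed (3.83% of control and 3.33% of mutant cells, below the 8.61% and 5.12% expected, so doublets remain). Both libraries were clustered together with leidenalg 0.10.2 (2000 variable genes, 30 components, 15 neighbours, resolution 0.8, and 1.5 for the subsets). Adamts1, Adamts5 and Adamts9 were among the variable genes. The rule that names clusters from markers was set after the data were seen.

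For each class, the counts of its cells were added up within a library and converted to CPM. CPM carry exact Poisson, shares exact Clopper-Pearson and log2 ratios (0.5 counts added) exact conditional Poisson intervals, at 95%. These ratios and intervals were run on simulated class sums drawn with Poisson error alone. Such sums hold no clumping of UMIs in few cells, so the run cannot show how the intervals behave under it. A gene was counted as higher or lower at 1.5-fold where its 2 levels averaged 10 CPM or more. The genes named are the 10 members, Dicer1, up to 12 genes of the wider lists per class past that limit, fixed substrates, and the 3 genes most like a member. Other genes were named after their values were seen: Syn1, Syn3, Adam17, Adam10, Timp4, and those of the Timp3-rich cells. The members and lists were chosen with earlier results of these data known. GENCODE M21, an annotation of GRCm38 (mm10), supplied coordinates and UTRs and held 32158 of 32285 gene identifiers. One target site is not reported here.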

Additional observations from a re-analysis of the deposited data

Results flagged for a closer look

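Differences in opposite directions between cell groups drew attention, and none of them was tested. Adamts5 was higher in the mutant library in the Npr3 subset (log2 ratio 1.58) and in the Wnt4 subset (0.64), and lower in coronary endothelial-like cells (-0.35). It was also lower in the few lymphatic endothelial-like cells (-4.08, from 23 and 1 UMIs). Timp3 was lower in the Npr3 subset (-0.89) and higher in the Wnt4 subset (0.47), and the Npr3 subset (-0.89) also stood against valve interstitial-like cells (0.11). In each of these pairs both intervals for counting error left out 0. The Wnt4 value of Timp3 rests in part on 3 cells, and was 0.17 without the richest 3% of cells in each library. That of Adamts5 in the Wnt4 subset was 0.09 for male-type mutant against female-type control cells.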

How the results depend on the processing

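No paired analysis was possible because each genotype has 1 library, and no library could be left out. Adamts5 stayed at least 1.5-fold higher in valve endothelial-like cells under all 19 alternatives (log2 ratio 0.64 to 1.58) and Adam19 under 18 of 19 (0.44 to 1.15), the exception being the Wnt4 cluster alone. The number of genes at least 1.5-fold lower in valve endothelial-like cells, 0, was 1 with a stricter filter, at resolution 1.5, with clustering without differing genes, when centred on the class median, in female-type cells, and in the Npr3 and Wnt4 clusters together or each alone, and 2 without the 3% of cells with most UMIs of the gene. The number higher in valve interstitial-like cells, 0, was 1 with no doublet removal and 1 without the 3% of richest cells, 2 for male-type mutant against female-type control cells, 2 by the mean over cells and 3 with cells thinned to 2000 UMIs. The number lower in coronary endothelial-like cells, 0, was 1 with clustering without differing genes, a class set per cell, centring, female-type cells, male-type mutant cells and thinning. The Adamts9 ratio of the Wnt4 subset, 0.92, turned to -0.39 with thinned cells. The cause was not tested. Timp3 in the Npr3 subset lay between -0.96 and -0.82 under 6 alternatives. Leaving out richest cells, the sex types and thinning within the subsets were alternatives chosen after seeing the data. Of the ratios of single genes, 534 moved by less than their counting interval and 88 by more. A count of 0 allows up to 3 UMIs, and the 100 mutant cells of the Wnt4 subset limit what it can show.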
